A study of Mus musculus with 24 samples.

Results

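The lysosomal cathepsins and their companion enzymes are described here in mouse calf muscle under glucocorticoid treatment: Ctsl, Ctsb, Ctsk, Ctss, Ctsz and Ctsh, which encode cysteine cathepsins, Ctsd, which encodes the aspartic cathepsin D, Gaa, which encodes the lysosomal acid alpha-glucosidase, and Lamp1 and Lamp2, which encode the main glycoproteins of the lysosomal membrane. Members were the beadchip probes whose annotated symbol is one of these 10 genes. All 10 genes were present, with 17 of the 46632 probes, and 15 of the 17 were detected often enough to be kept among 20769 kept probes. Each gene was read from its brightest kept probe, as 10 of 16262 features tested. The set was named for lysosomal enzymes, but Lamp1 and Lamp2 encode membrane proteins without enzyme activity.

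Lysosomes break down proteins, glycogen and lipids that reach them by endocytosis or by fusion with autophagosomes. Cathepsins are made as inactive precursors, are tagged with mannose 6-phosphate in the Golgi and become active in the acid lumen. In skeletal muscle the autophagy and lysosome route works beside the ubiquitin and proteasome route in wasting states, and Ctsl is a well-known gene of muscle atrophy programmes. Cathepsin K is best known from osteoclasts and is also made by fibroblasts, and cathepsins S and H are prominent in antigen-presenting cells.

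The triceps surae, the calf muscle group, came from C57/Bl6 mice aged 4 months. Mice were wild type or MuRF1 knockout, MuRF1 being a ubiquitin ligase of muscle and the product of Trim63, and the labels name no other allele. They drank water with dexamethasone, a synthetic glucocorticoid, at 3 mg/kg or had no dexamethasone, for 3 or 14 days, with separate untreated controls for each time. There were 3 arrays in each of the 8 groups, and an arm below is the treated and untreated group of 1 genotype and 1 time. Nothing in the labels says that arrays of a group came from separate animals, so p-values measure the spread between these arrays, which may be technical.

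Across the 24 arrays the median probe signal ran from 81.0 to 101.9 and 28.99% to 36.1% of probes were detected. Arrays of 1 group correlated at 0.951 or more, with a median of 0.987. Replicate 3 of the dexamethasone-treated knockout at 3 days stood apart, at 70.6 on the first principal component against -32.0 to 23.8 for all others. The genotype labels were checked on Trim63, whose log2 signal was 8.07 to 9.95 on the 12 wild-type arrays and 4.46 to 5.16 on the 12 knockout arrays. Fbxo32, the other classical atrophy ligase, rose by 1.62 on the log2 scale in the mean of the 4 arms (SE 0.116). All 9 muscle fibre markers were detected often enough to be kept.

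Promoter sequences are shown for the member that changed most, Ctsk, and for the 4 members whose promoter held CACGTG, the core of the CLEAR element through which TFEB and related factors act on lysosomal genes. They run from 250 bases before to 50 bases after the gene start, are taken from RefSeq on GRCm38.p6 and are printed 5′ to 3′ on the gene's strand. Capitals mark CACGTG, or TCACGTGA where the longer palindrome is present.
Ctsk promoter, chr3:95498960-95499259, plus strand: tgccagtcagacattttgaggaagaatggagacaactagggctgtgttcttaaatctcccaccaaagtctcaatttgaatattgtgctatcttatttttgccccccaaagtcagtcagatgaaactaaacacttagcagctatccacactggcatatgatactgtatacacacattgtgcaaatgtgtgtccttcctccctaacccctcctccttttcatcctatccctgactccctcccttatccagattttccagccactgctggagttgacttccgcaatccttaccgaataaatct
Ctsd promoter, chr7:142387778-142388077, minus strand: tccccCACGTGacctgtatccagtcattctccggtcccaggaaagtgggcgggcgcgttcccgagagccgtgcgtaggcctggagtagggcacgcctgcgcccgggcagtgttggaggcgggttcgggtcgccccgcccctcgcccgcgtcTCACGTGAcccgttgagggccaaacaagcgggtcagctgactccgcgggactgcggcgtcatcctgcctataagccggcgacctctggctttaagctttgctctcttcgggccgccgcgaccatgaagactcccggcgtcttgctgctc
Gaa promoter, chr11:119267713-119268012, plus strand: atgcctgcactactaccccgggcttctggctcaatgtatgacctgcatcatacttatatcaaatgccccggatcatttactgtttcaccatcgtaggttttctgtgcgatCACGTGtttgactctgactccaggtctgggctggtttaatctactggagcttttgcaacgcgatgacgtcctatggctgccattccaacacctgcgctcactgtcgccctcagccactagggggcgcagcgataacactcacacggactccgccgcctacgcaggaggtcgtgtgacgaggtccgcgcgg
Ctsl promoter, chr13:64370471-64370770, minus strand: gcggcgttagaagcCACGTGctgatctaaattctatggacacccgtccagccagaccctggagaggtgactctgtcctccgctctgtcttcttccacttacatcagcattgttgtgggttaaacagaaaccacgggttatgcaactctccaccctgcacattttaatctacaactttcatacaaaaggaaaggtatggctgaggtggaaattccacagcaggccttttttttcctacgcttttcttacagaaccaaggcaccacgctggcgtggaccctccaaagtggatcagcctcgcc
Lamp1 promoter, chr8:13158911-13159210, plus strand: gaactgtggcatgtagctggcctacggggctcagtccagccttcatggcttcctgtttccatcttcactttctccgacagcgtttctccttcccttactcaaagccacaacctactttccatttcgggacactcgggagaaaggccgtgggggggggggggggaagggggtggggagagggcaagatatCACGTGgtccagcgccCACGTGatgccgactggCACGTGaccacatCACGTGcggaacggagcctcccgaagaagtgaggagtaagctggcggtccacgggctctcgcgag

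Of the 10 members, 8 matched a RefSeq promoter, and CACGTG, which reads the same on both strands, lay in 4 of the 8 against 7.15% of 32851 mouse promoters of the same length. In Ctsl its first letter lay 236 bases before the start and in Gaa 140 bases before it. The Ctsd promoter held it 245 and 98 bases before the start, the nearer copy inside TCACGTGA, an 8-letter palindrome in 0.974% of all promoters. Lamp1 held 4 copies within 61 bases of the start, at 61, 45, 28 and 15 bases before it. Ctsk, Ctss, Ctsz and Lamp2 held none in this window. GTAAACA, a FOXO motif searched on both strands, was in 0 of 8 member promoters and 3.65% of all. The 4 genes with CACGTG did not share 1 response in the values below, and a match is a description of letters.

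The question of most of the following comparisons was how dexamethasone changed each transcript within a genotype and time. The cathepsin K transcript was lower after dexamethasone in all 4 arms, by 1.12 to 1.93 on the log2 scale. Gaa and Ctsd were higher in wild-type muscle at 3 days. Ctsh was lower in the knockout at 14 days. Ctsb, Ctss, Ctsz, Lamp1 and Lamp2 passed the threshold in none of the 4 arms by their brightest probe. The threshold is an adjusted p of 0.05 from limma with Benjamini-Hochberg adjustment over all 16262 features.

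At 3 days in wild type 2 members passed upward and 1 downward, against 3.87% of all features in either direction. In the knockout at 3 days 1 member passed, downward, against 5.37%. At 14 days 1 member passed in wild type, against 3.00%, and 2 in the knockout, against 3.27%, all downward. Treated and untreated arrays did not overlap for 5 members in wild type at 3 days (22.6% of features), 3 in the knockout at 3 days (19.2%), 3 in wild type at 14 days (19.6%) and 4 in the knockout at 14 days (17.3%). In the mean of the 4 arms, which rests on all 24 arrays, 2 members were higher and 2 lower, against 13.1% of features. Ctsl, among the higher ones, met the detection filter only through treated arrays. It is also counted among the members without overlap in wild type at 3 days and in the knockout at 14 days. That filter favours such a gap, so the Ctsl part of these counts is not taken as support for a rise. The median log2 fold change of the 10 members in the mean of the 4 arms was 0.09, and that of all features was 0.00.

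Cysteine cathepsins come first, and among them cathepsin K, a strong collagenase. The Ctsk log2 signal in wild type at 3 days was 6.65, 6.43 and 6.71 untreated and 5.34, 5.53 and 5.47 with dexamethasone. In the knockout at 3 days it was 6.86, 6.79 and 6.52 untreated and 5.52, 5.62 and 5.67 treated. Treated and untreated arrays did not overlap in either genotype. At 14 days the wild-type values were 6.26, 6.33 and 7.12 untreated and 5.76, 4.92 and 5.23 treated. The knockout values were 6.97, 7.45 and 7.17 untreated and 4.81, 5.65 and 5.34 treated. Over the whole series the 12 untreated arrays, at 6.26 to 7.45, all lay above the 12 treated ones, at 4.81 to 5.76.

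Ctsk fell by 1.15 on the log2 scale in wild type at 3 days (SE 0.225, limma adjusted p = 0.00262), a 2.21-fold lower signal. It fell by 1.12 in the knockout at 3 days (SE 0.225, limma adjusted p = 0.00307). At 14 days it fell by 1.26 in wild type (limma adjusted p = 0.00131) and by 1.93, or 3.82-fold, in the knockout (limma adjusted p = 5.97e-06). These 4 arms do not share arrays. The interaction tests did not separate them: the knockout effect at 14 days minus that of wild type was -0.67 (unadjusted p = 0.0468, limma adjusted p = 1.00), and minus that of the knockout at 3 days it was -0.81 (unadjusted p = 0.0179, limma adjusted p = 0.254). The size depended on the background handling: in the mean of the 4 arms the change was -1.37, but -0.65 with no background correction, -0.91 with an offset of 50 and -1.79 in the authors' value table.

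Ctsk is also made outside muscle fibres, so markers of other cells are set beside it. In the mean of the 4 arms 9 of 10 fibroblast markers passed the threshold downward and none upward, against 13.1% of all features. Col1a1, a collagen I chain, fell by 2.98 on the log2 scale (SE 0.133) and Col1a2, the other chain of collagen I, by 1.73. Lum, a collagen-binding proteoglycan, fell by 1.40 and Fn1, fibronectin, by 1.26. The summed linear signal of the fibroblast markers was 8697 to 9229 in untreated and 6396 to 8069 in treated wild type at 3 days, and 8961 to 11954 and 6397 to 7330 in the knockout at 14 days. Treated and untreated sums did not overlap in any of the 4 arms.

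The macrophage markers Cd163, Fcgr1, Itgam and Cx3cr1 were not detected often enough to be kept. Of 11 measured macrophage markers 6 passed the threshold downward in the mean of the 4 arms, against 13.1% of all features. Their sum overlapped between treatments in wild type at 3 days and not in the knockout at 14 days: it was 862 to 1125 untreated and 792 to 882 treated in wild type at 3 days, and 1288 to 1868 against 1043 to 1182 in the knockout at 14 days. Mrc1, the mannose receptor of tissue macrophages, fell by 0.83 and Adgre1, the F4/80 antigen, by 0.54 in the mean of the 4 arms. Of 7 osteoclast markers only 3 were kept, and Acp5, Calcr, Dcstamp and Atp6v0d2, which define that cell, were not. Ocstamp, a fusion protein of osteoclasts, rose by 0.30 (limma adjusted p = 0.0187) while Ctsk fell, and it was detected on 7 of the 24 arrays. In bulk tissue, fewer cells of a type and less RNA per cell cannot be told apart, and the part of these cells in the Ctsk change was not tested.

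The 4 named genes whose log2 signal followed Ctsk most closely over the 24 arrays were Mmp2, a gelatinase (Pearson r = 0.959), Serpinf1, a secreted protein also called PEDF (0.954), Fn1 (0.952) and H2-Ab1, a class II antigen-presentation chain (0.951). These arrays share the treatment difference. With each group's mean removed the coefficients were 0.693, 0.769, 0.702 and 0.569. Among the members Ctsh was closest to Ctsk, at 0.774, or 0.364 with group means removed.

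**Figure D1:**
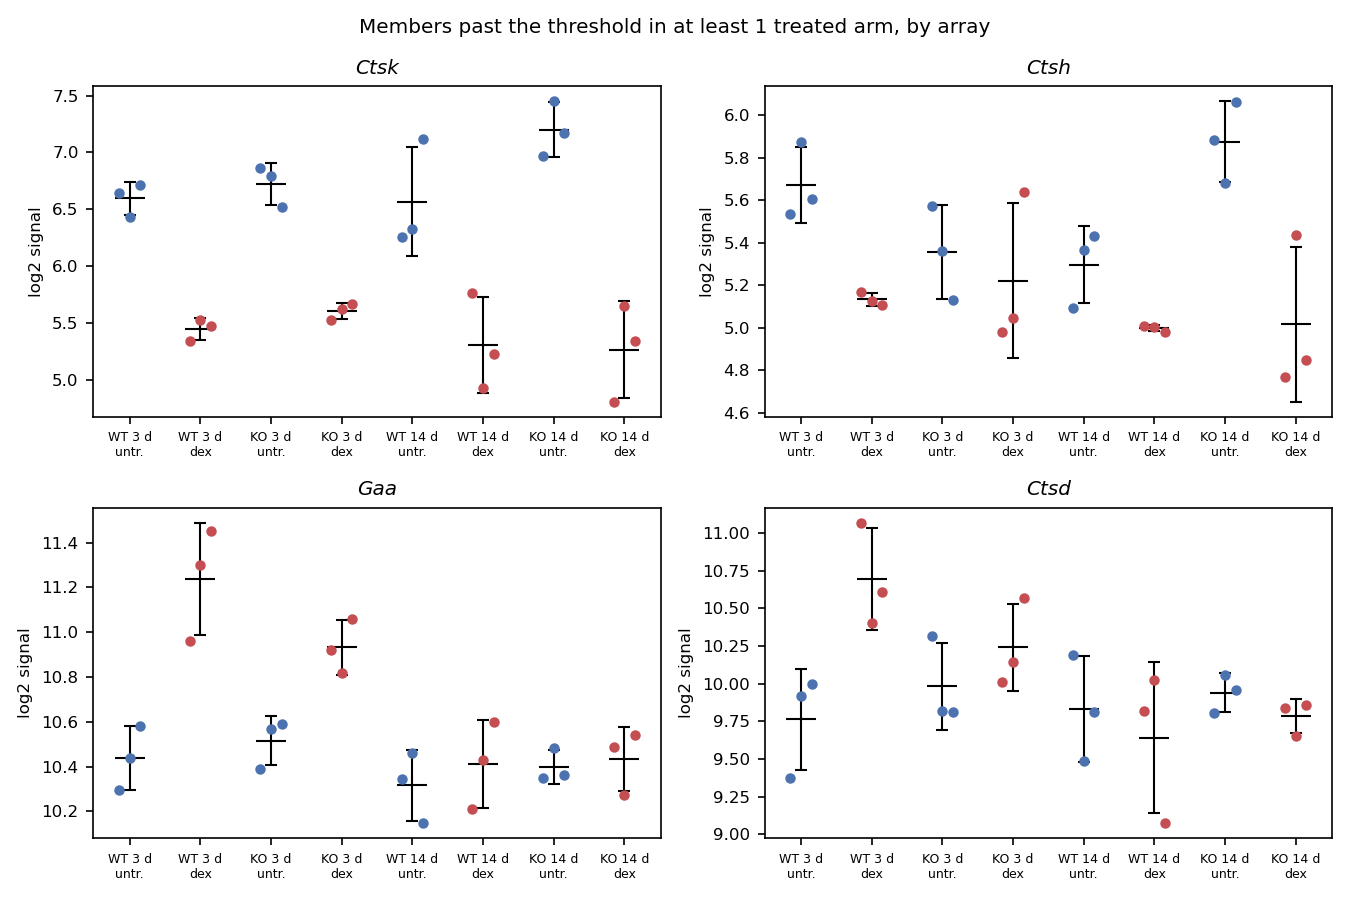
Log2 signal (vertical axis) of Ctsk, Ctsh, Gaa and Ctsd on each of the 24 arrays in the 8 groups (horizontal axis, WT wild type, KO knockout, 3 or 14 days), untreated in blue and dexamethasone-treated in red; black bars are the group mean and SD of 3 arrays. Treated Ctsk points, at 4.81 to 5.76, all lie below the untreated ones, and Gaa and Ctsd stand highest in treated wild type at 3 days.

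Cathepsin H, an aminopeptidase found in many cells, was the other cysteine cathepsin that fell. Its log2 signal in the knockout at 14 days was 5.88, 5.68 and 6.06 untreated and 4.77, 5.43 and 4.85 treated. The 3 treated arrays lay below the 3 untreated ones. Ctsh fell by 0.86 (SE 0.183, limma adjusted p = 0.00688), a 1.81-fold lower signal. In wild type at 3 days the values were 5.54, 5.87 and 5.61 untreated and 5.17, 5.12 and 5.11 treated, without overlap, and the change of -0.54 did not pass (limma adjusted p = 0.124).

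In wild type at 14 days Ctsh gave 5.09, 5.36 and 5.43 untreated and 5.01, 5.003 and 4.98 treated, a change of -0.30 (limma adjusted p = 0.560). The groups again did not overlap. The knockout at 3 days gave 5.57, 5.36 and 5.13 untreated and 4.98, 5.05 and 5.64 treated, and the high treated array was the one that stood apart. The change was -0.13 (limma adjusted p = 0.736), and -0.34 without that array (limma adjusted p = 0.434). The mean of the 4 arms fell by 0.46 (SE 0.0914, limma adjusted p = 0.000905), and was -0.16 with no background correction, -0.25 with an offset of 50 and -0.70 in the authors' value table.

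The Ctsh call at 14 days in the knockout rested on few arrays. Without knockout untreated replicate 3 the change was -0.76 (limma adjusted p = 0.0571) and without knockout treated replicate 1 it was -0.73 (limma adjusted p = 0.0614). Of 6 kept markers of dendritic and B cells, most of them chains of the antigen-presentation machinery, 4 passed downward in the mean of the 4 arms. The share of all features past the threshold there was 13.1%. No other marker of the 6 had an unadjusted p under 0.05 in limma. H2-Ab1 fell by 1.88 and Cd74, the invariant chain, by 1.69 on the log2 scale. Their sum in the knockout at 14 days was 1651 to 1915 untreated and 354 to 397 treated. The part of these cells in the Ctsh change was not tested.

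Cathepsin L, the cysteine protease most often named in muscle wasting, was near the limit of detection. Its probe was detected on 5 of 24 arrays, all 5 of them treated, and on 0 of 12 untreated arrays. The detected arrays were 2 in wild type at 3 days and 1 in each of the other 3 treated groups. Log2 signals in wild type at 3 days were 4.38, 4.42 and 4.31 untreated and 4.66, 4.81 and 4.70 treated. In the knockout at 14 days they were 4.31, 4.40 and 4.36 untreated and 5.22, 4.60 and 4.52 treated. Both pairs of groups were apart, and neither change passed the threshold. The detection filter, met only through treated arrays, favours such a gap.

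The Ctsl change was 0.35 in wild type at 3 days (SE 0.174, limma adjusted p = 0.389) and 0.42 in the knockout at 14 days (limma adjusted p = 0.247). The other 2 arms overlapped, with changes of 0.11 and 0.20. Only the mean of the 4 arms passed, at 0.27 (SE 0.0871, limma adjusted p = 0.0401). The probe met the detection filter only through treated arrays, so that p-value favours a rise and is not taken as support for one. These fitted changes are not measured folds, since no untreated array detected the probe. A cautious ratio was computed apart from the fit, from the treated mean against the lowest signal among detected probes, or the untreated value where higher. The treated mean includes arrays that did not detect the probe, so the ratio is not a strict lower bound. This ratio of treated to untreated signal was 1.03 in wild type at 3 days, or 1.004 without treated replicate 2. The ratio in the knockout at 14 days was 1.04. It rested on treated replicate 1, the only array of that arm that detected the probe, and without that array there was none. The other arms gave none. The mean of the 4 arms lost its call in 15 of 24 fits that left out 1 array and in 4 of 10 other settings, the highest adjusted p being 0.646 with the authors' value table.

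Cathepsin B, an endo- and exopeptidase abundant in lysosomes, barely moved. The Ctsb log2 signal ran from 10.87 to 11.28 over the 24 arrays, a range of 0.41. Untreated arrays had a median of 11.12 and treated ones of 11.13. Changes in the 4 arms were between -0.12 and 0.07, and the 95% interval of their mean was -0.12 to 0.12. In wild type at 14 days the treated arrays, at 11.23 to 11.28, lay above the untreated ones, at 11.11 to 11.21. Groups did not overlap there for 19.6% of features. The other kept Ctsb probe gave changes between -0.13 and 0.11, none past the threshold in a fit of every kept probe. In wild type at 14 days its mean was lower with treatment, at 6.99 untreated and 6.87 treated.

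Ctss, the endopeptidase that trims the invariant chain, was also dim, detected on 10 of 24 arrays spread over 7 of the 8 groups. Its log2 signal ran from 4.42 to 5.31 untreated and from 4.44 to 5.26 treated, and no arm passed. The change was -0.16 and 0.34 in wild type at 3 and 14 days and 0.13 and -0.19 in the knockout. No array of untreated wild type at 14 days detected the probe, so the fitted 0.34 is not a measured fold. The ratio computed as for Ctsl was 1.15 there, and 1.02 without treated replicate 1. It too includes a treated array that did not detect the probe.

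Ctsz, a carboxypeptidase, was read by 2 probes that differed in sign in 3 of the 4 arms and were both lower with treatment in wild type at 14 days. The brighter probe gave 6.68, 6.66 and 6.22 untreated and 6.74, 7.14 and 7.24 treated in the knockout at 3 days, without overlap. That change was 0.51 (SE 0.186, limma adjusted p = 0.115). Without treated replicate 1 it was 0.66 and passed (limma adjusted p = 0.0416). The other probe gave -0.13 in the same arm, and in the mean of the 4 arms the probes gave 0.16 and -0.22, neither past the threshold. No direction is therefore given for Ctsz.

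**Figure D2:**
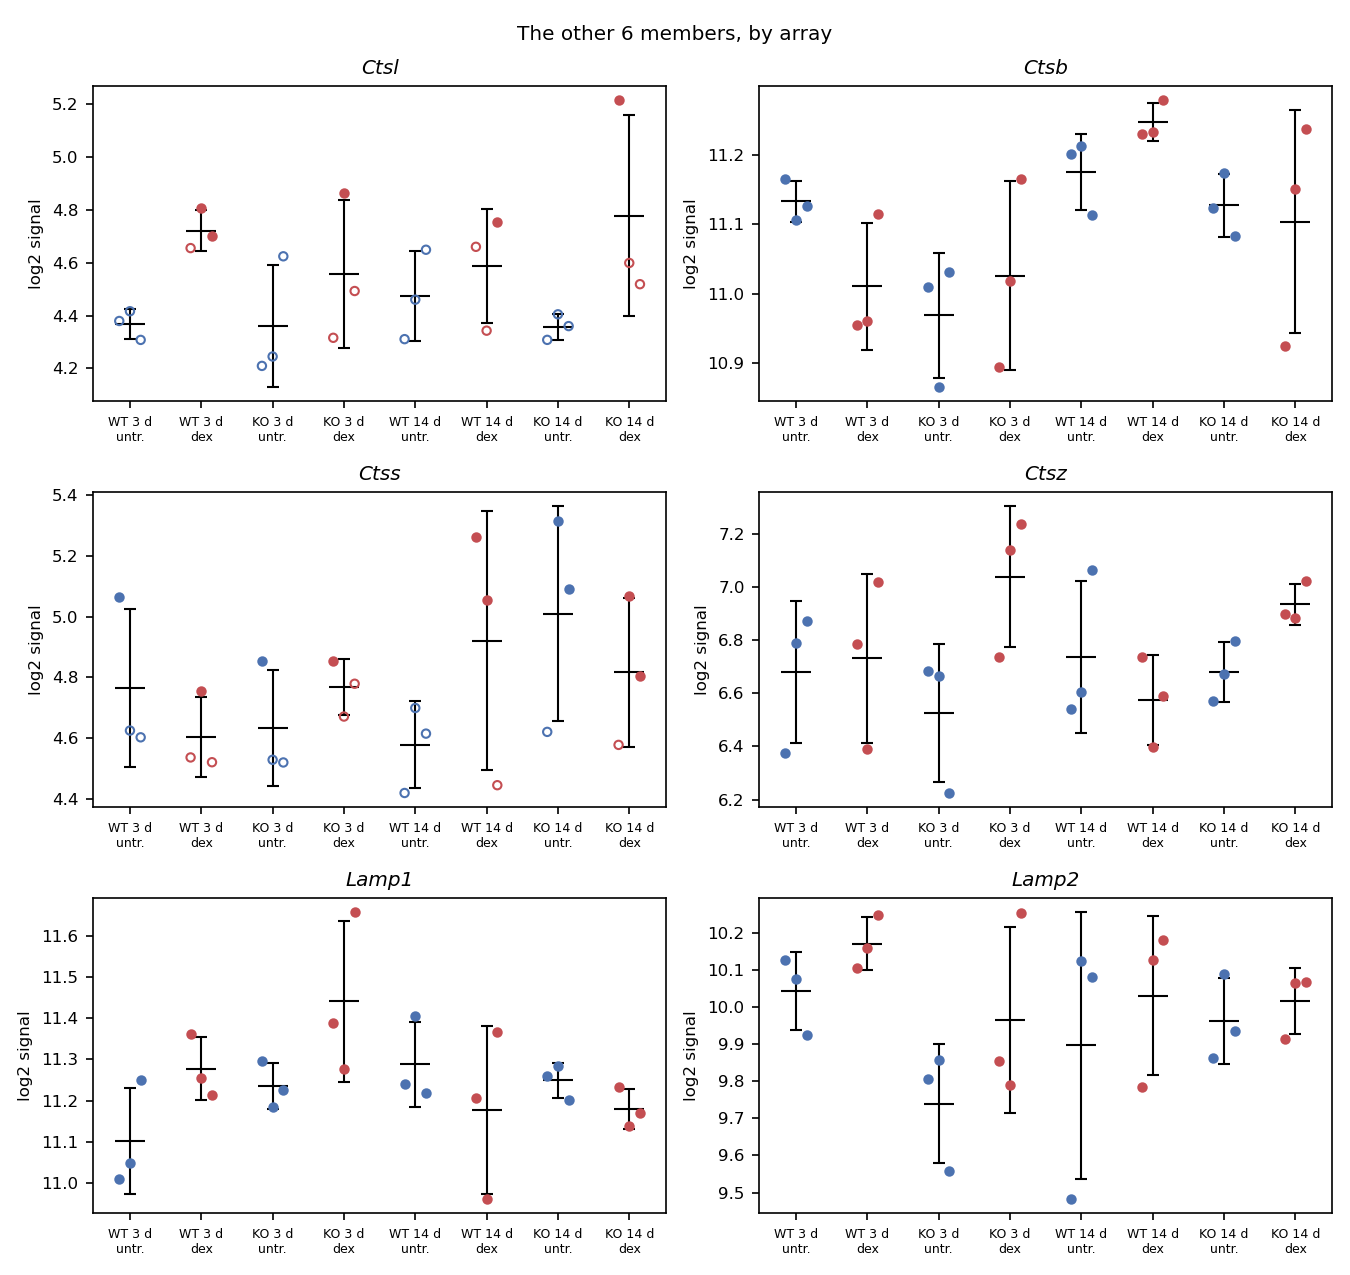
Log2 signal (vertical axis) of Ctsl, Ctsb, Ctss, Ctsz, Lamp1 and Lamp2 on each array in the 8 groups (horizontal axis), untreated in blue and treated in red; filled points had a detection p under 0.05 and open points did not, and bars are the mean and SD of 3 arrays. Every untreated Ctsl point is open, and Ctsb stays within 10.87 to 11.28.

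The aspartic protease cathepsin D, among the most abundant lysosomal proteases, rose in 1 arm. Ctsd in wild type at 3 days was 9.37, 9.92 and 9.996 untreated and 11.07, 10.40 and 10.61 treated on the log2 scale. The 3 treated arrays included the highest of the series. Ctsd rose by 0.93 (SE 0.236, limma adjusted p = 0.0224), a 1.91-fold higher signal. In the knockout at 3 days it was 10.31, 9.82 and 9.81 untreated and 10.01, 10.14 and 10.57 treated, overlapping, with a change of 0.26 (limma adjusted p = 0.586).

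At 14 days Ctsd gave 10.19, 9.49 and 9.81 untreated and 9.82, 10.02 and 9.07 treated in wild type. The knockout gave 9.80, 10.06 and 9.96 untreated and 9.84, 9.65 and 9.86 treated. Both arms overlapped, with changes of -0.19 and -0.16. The difference between times in wild type was -1.12 (unadjusted p = 0.00265, limma adjusted p = 0.280) and did not pass. The 3-day call was lost without wild-type untreated replicate 1, at 0.74 (limma adjusted p = 0.164), without wild-type treated replicate 1, at 0.75 (limma adjusted p = 0.161), and without wild-type treated replicate 3, at 0.98 (limma adjusted p = 0.0584).

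Acid alpha-glucosidase, which splits glycogen inside lysosomes and is the enzyme missing in Pompe disease, rose early. Gaa in wild type at 3 days was 10.29, 10.44 and 10.58 untreated and 10.96, 11.30 and 11.45 treated on the log2 scale. In the knockout at 3 days it was 10.39, 10.57 and 10.59 untreated and 10.92, 10.82 and 11.06 treated. Treated arrays lay above untreated ones in both genotypes. Gaa rose by 0.80 in wild type (SE 0.145, limma adjusted p = 0.00112), a 1.74-fold higher signal, and gave 0.42 in the knockout (SE 0.145, limma adjusted p = 0.0984).

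Without the array that stood apart, the knockout value was 0.35 (limma adjusted p = 0.332). The genotypes were not shown to differ: the interaction at 3 days was -0.38 (limma adjusted p = 0.996), and treated knockout minus treated wild type was -0.31 (unadjusted p = 0.0457, limma adjusted p = 0.442). By 14 days the groups overlapped. Wild type gave 10.35, 10.46 and 10.15 untreated and 10.21, 10.43 and 10.60 treated, a change of 0.09, and the knockout gave 10.35, 10.48 and 10.36 untreated and 10.49, 10.27 and 10.54 treated, a change of 0.04. The 14-day minus the 3-day effect in wild type, -0.70, did not pass (unadjusted p = 0.0022, limma adjusted p = 0.264). The mean of the 4 arms was 0.34 (SE 0.0724, limma adjusted p = 0.0019).

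Red blood cell markers moved with time in the same arms. All 4 measured markers passed downward at 3 days, against 3.87% of features in wild type and 5.37% in the knockout. None of them passed at 14 days, against 3.00% and 3.27%. Their summed signal in wild type was 34383 to 58183 untreated and 7138 to 11407 treated at 3 days, and 46531 to 66619 and 48398 to 65875 at 14 days. The sum of the muscle fibre markers was 174181 to 192090 untreated and 178546 to 190297 treated in wild type at 3 days. Of the 9 muscle fibre markers 3 passed in the mean of the 4 arms, or 33.3% against 13.1% of all features. The part of either list of markers in the Gaa and Ctsd values was not tested. The named genes most like Gaa over the 24 arrays were Nrap, a protein of myofibril assembly (Pearson r = 0.912), Cdpf1 (0.904), Slc15a4, a lysosomal peptide transporter (0.881), and Psmd2, a proteasome subunit (0.875). With group means removed the coefficients were 0.706, 0.477, 0.390 and 0.227.

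**Figure D3:**
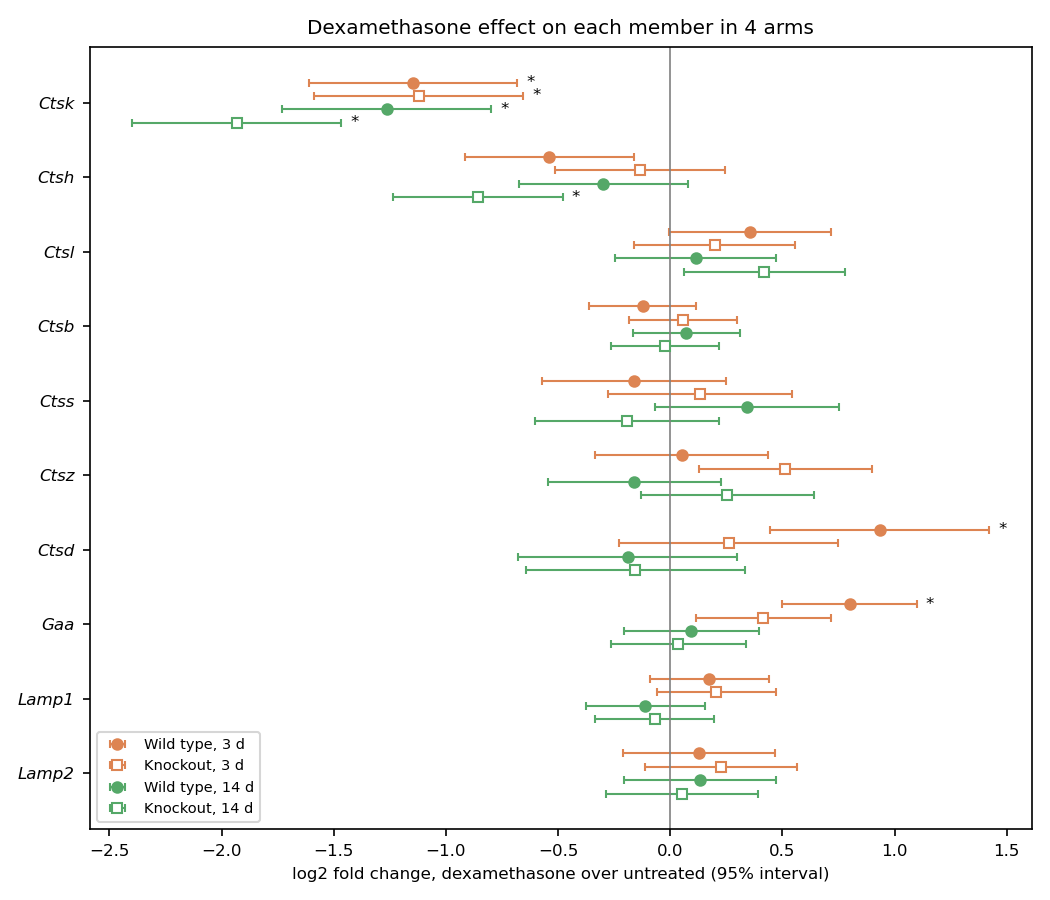
Log2 fold change of dexamethasone over untreated (horizontal axis) for the 10 members (vertical axis) in the 4 arms, with 95% intervals from the limma fit; asterisks mark an adjusted p under 0.05. Ctsk lies left of 0 in every arm, and the 3-day wild-type points of Gaa (0.80) and Ctsd (0.93) lie farthest right.

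The membrane glycoproteins line the inner face of the lysosomal membrane, and Lamp2 also serves fusion and chaperone-mediated autophagy. Lamp1 ran from 11.01 to 11.41 untreated and from 10.96 to 11.66 treated on the log2 scale. Its changes were 0.17 and -0.11 in wild type and 0.21 and -0.07 in the knockout, at 3 and 14 days, and none passed. The highest Lamp1 array, at 11.66, was the one that stood apart, and the 3-day knockout value without it was 0.10.

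Lamp2 by its brightest probe ran from 9.48 to 10.13 untreated and from 9.78 to 10.25 treated. Its changes were 0.13, 0.13, 0.23 and 0.05 in wild type at 3 and 14 days and the knockout at 3 and 14 days, with none past the threshold. A dimmer probe, ILMN_2675938, gave 0.59, -0.05, 0.50 and 0.34 in the same order, and its mean of 0.35 passed in the fit of every kept probe (SE 0.0966, limma adjusted p = 0.0176), where 11.9% of probes passed. The mean changes of the remaining Lamp2 probes were 0.10 and 0.13, neither past the threshold. The Lamp2 result therefore depends on the probe, and which transcripts each probe reads was not tested. Of 5 Lamp2 probes and 2 Gaa probes, 1 of each was detected on 0 of 24 arrays.

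**Figure D4:**
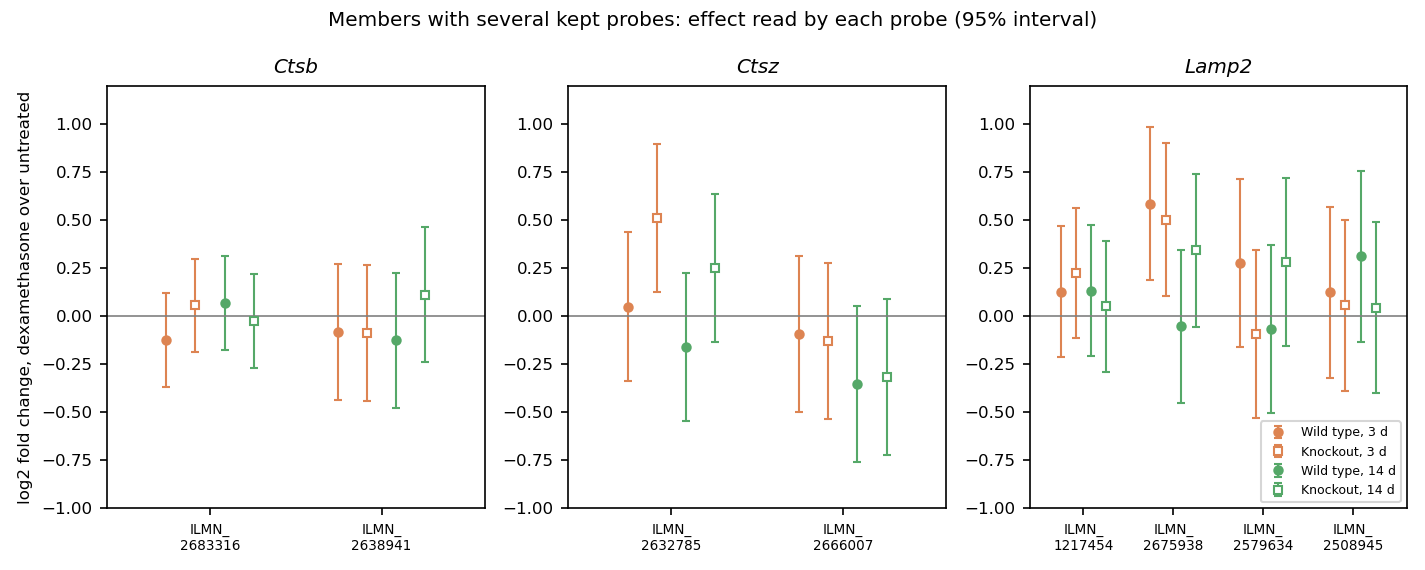
Log2 fold change of dexamethasone over untreated (vertical axis, 95% intervals) read by each kept probe (horizontal axis) of Ctsb, Ctsz and Lamp2 in the 4 arms. The Ctsz probes differ in sign in the knockout arms, and 1 Lamp2 probe gave 0.59 and 0.50 at 3 days where the brightest gave 0.13 and 0.23.

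The genotype comparisons set knockout against wild type at the same time and treatment. No member passed between knockout and wild type, whether untreated at 3 days (0.326% of features passed), untreated at 14 days (0.351%), treated at 3 days (0.517%) or treated at 14 days (0.603%). At an unadjusted p under 0.05 the limma fit gave 0, 3, 1 and 0 members, against 6.518%, 10.34%, 11.03% and 11.43% of features. The lowest unadjusted p was that of Ctsh in untreated muscle at 14 days, 0.58 higher in the knockout (SE 0.183, unadjusted p = 0.00435, limma adjusted p = 0.255), without overlap, as for 13.9% of features. Ctsk was 0.63 higher there (SE 0.225, limma adjusted p = 0.337) and Ctss 0.43 higher (limma adjusted p = 0.460), both with overlap. No array of that wild-type group detected Ctss. The ratio of knockout to wild type computed as for Ctsl, apart from the fitted 0.43, was 1.22. It was 1.10 without untreated knockout replicate 2, and both include a knockout array that did not detect the probe. With array weights in the fit all 3 passed, Ctsk at 0.72, Ctsh at 0.72 and Ctss at 0.51. Under that setting 2681 of all 16262 features passed in this comparison, in place of 57. The summed signal of the dendritic and B cell markers there was 1134 to 1648.9 in wild type and 1651.1 to 1915 in the knockout. These ranges were apart only by that narrow margin. Of the 6 markers 3 had an unadjusted p under 0.05 in limma, against 10.34% of features. The macrophage marker sum overlapped, at 987 to 1850 in these wild-type and 1288 to 1868 in these knockout arrays. The part of these cells in the Ctsh, Ctsk and Ctss values was not tested.

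No member passed in the interactions, which ask whether the dexamethasone effect differed between genotypes or times. The shares of features that passed were 0% at 3 days and 0.0123% at 14 days between genotypes, and 0.148% and 0.129% between times in wild type and knockout. At an unadjusted p under 0.05 the limma fit gave 0 and 2 members between genotypes (4.298% and 4.858% of features) and 2 and 2 between times (7.828% and 14.97%). Between the untreated groups of the 14-day and 3-day arms no member passed either, against 0.160% of features in wild type and 0.00615% in the knockout, with 0 and 2 members at an unadjusted p under 0.05 (10.98% and 6.592% of features). The untreated knockout gave higher Ctsk, by 0.47 (unadjusted p = 0.0466), and higher Ctsh, by 0.52 (unadjusted p = 0.00933), in the 14-day arm. The untreated knockout of the 14-day arm had the highest group mean of the 8 groups for Ctsk and for Ctsh.

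Other lysosomal genes, listed by role, were counted in the mean of the 4 arms. Of 6 measured other proteases 3 were lower and none higher, or 50% against 13.1% of all features. Lgmn, which encodes legumain, gave -0.67 (SE 0.0957) and Cpq, a carboxypeptidase, -0.48. Ctsc, which encodes the dipeptidyl peptidase cathepsin C, gave -0.44. Lgmn also passed in 3 of the 4 single arms. The median of the 6 was -0.30. Among 29 other hydrolases and activators 4 were lower and none higher, namely Naglu (-0.50, SE 0.113), Man2b1 (-0.43), Glb1 (-0.35) and Asah1 (-0.27), which degrade heparan sulfate, mannose chains, galactosides and ceramide. That share, 13.8%, was near the 13.1% of all features that passed in this mean.

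Of 18 other membrane proteins 2 were higher and 3 lower, or 27.8% against 13.1% of all features. Laptm5, a protein of blood-derived cells, fell by 0.79 (SE 0.0771) and Ostm1, the partner of the chloride transporter ClC-7, by 0.64, and both passed in all 4 arms. Cln3, whose loss causes a juvenile storage disease, fell by 0.39. Cd63, a tetraspanin, rose by 0.27, with 0.64 and 0.59 at 3 days in wild type and knockout. Npc1, the cholesterol exporter, rose by 0.56 (SE 0.146) and is named after its value was seen. The vacuolar ATPase, the proton pump that acidifies lysosomes, had 1 of 16 measured subunits past the threshold, Atp6ap1 at -0.24. That share, 6.25%, was below the 13.1% of all features.

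For sorting, 1 of 10 passed, or 10% against 13.1% of all features. Gnptg, a subunit of the enzyme that builds the mannose 6-phosphate tag, rose by 0.63 (SE 0.0705) and passed in 3 of 4 arms. The 4 measured transcription factors of lysosomal genes were Tfeb, Tfe3, Mitf and Zkscan3. In the mean of the 4 arms 0 passed in limma, against 13.1% of all features. At an unadjusted p under 0.05 the limma fit gave 0 there, against 23.07% of features. Single arms of these factors differed in sign. Tfeb was 0.77 higher in the knockout at 3 days (unadjusted p = 0.00487, limma adjusted p = 0.0706), Tfe3 gave -0.50 in wild type at 14 days (limma adjusted p = 0.202) and Mitf 0.59 in the knockout at 14 days (limma adjusted p = 0.273). For the time difference in the knockout 3 of the 4 had an unadjusted p under 0.05 in limma, against 14.97% of features. Tfeb gave -0.77, Tfe3 -0.68 and Mitf 0.89, and 0 passed (lowest limma adjusted p = 0.250), against 0.129% of features. The 3 were named after their values were seen. The summed signal of the 4 in wild type at 14 days was 563 to 670 untreated and 714 to 786 treated, without overlap. It overlapped in every other arm. In the knockout at 14 days it was 449 to 708 untreated and 666 to 807 treated. At 3 days it was 497 to 673 and 432 to 577 in wild type, and 481 to 644 and 400 to 576 in the knockout. Of 4 measured cathepsin inhibitors Serpinb6a, a serpin that acts on serine proteases rather than on the cysteine cathepsins, rose by 0.73 (SE 0.0761), with 0.98 and 1.15 at 3 days in wild type and knockout. Of 14 measured autophagosome partners 5 rose and none fell, or 35.7% against 13.1% of all features. Rab7, a GTPase of late endosomes, rose by 0.85 (SE 0.0893), Map1lc3a by 0.73, Gabarapl1 by 0.45 and Map1lc3b by 0.25. Gabarap, named after its value was seen, rose by 0.25. The last 4 encode proteins that coat autophagosome membranes. These lists were chosen with earlier results of these data known, and their medians are read only beside the 0.00 of all features.

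**Figure D5:**
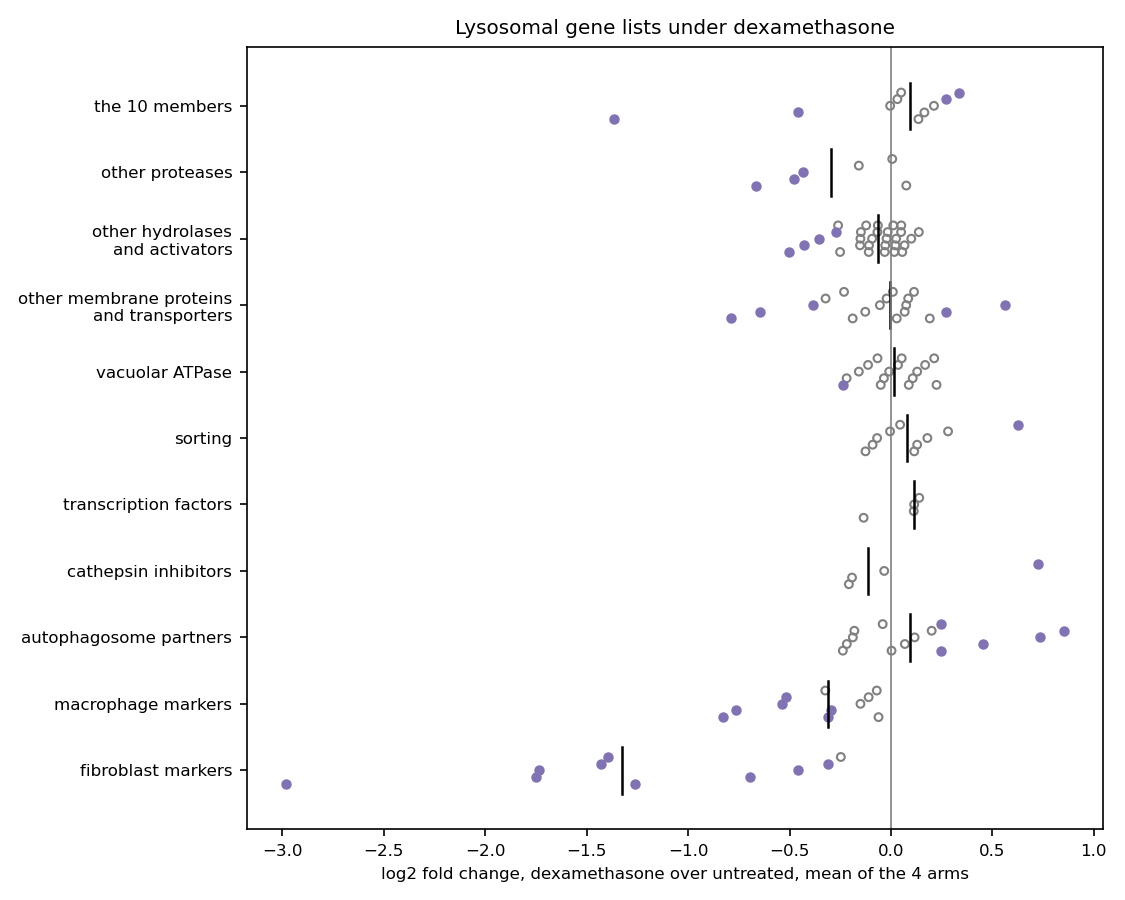
Log2 fold change of dexamethasone over untreated in the mean of the 4 arms (horizontal axis), 1 point per measured gene, for the 10 members and 10 other gene lists (vertical axis); filled points passed the threshold, open points did not, and black bars are list medians. Autophagosome partners that passed lie right of 0, and the proteases, hydrolases and fibroblast and macrophage markers that passed lie left of it.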

How the data were processed

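RNA of 24 triceps surae samples, one per array, was labelled with biotin for Illumina beadchips, per the labels. For each array and each of 46632 probes the deposited non-normalized table holds the average intensity and a detection p-value, as its header names them. Normalized intensity values deposited by the authors in a further table served as an alternative, floored at 16. The submitters' processing notes name BeadStudio 3.2.3. Neither chip positions nor scan dates were available to this work, so chip batches were not tested.

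The neqc function of limma 3.58.1 (R 4.3.3) corrected background by means of the detection p-values, quantile-normalized and took log2 after adding 16, which compresses differences of dim probes. A probe needed a detection p under 0.05 on 3 or more of the 24 arrays. Of all probes, 29976 had 1 annotated symbol, 10 several and 16646 none. The brightest kept probe stood for each gene and unnamed probes stayed single, giving 16262 features, 11010 of them named genes. One mean per group was fitted to all 24 arrays with lmFit and eBayes, with 16 residual degrees of freedom. P-values were adjusted by the Benjamini-Hochberg method within a comparison, with a threshold of 0.05. Of 202 listed genes other than members, 158 were measured.

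All 10 members are named. From each other list up to 4 genes are named, those with the lowest p in the mean of the 4 arms among those past the threshold in at least 1 dexamethasone comparison. The 4 named genes with the highest Pearson correlation are given for the member with the lowest p in each direction. Members, lists and tests were chosen with earlier results of these data known. Replicates are numbered as in the non-normalized table, whose numbers differ from the value table's in 5 groups. Same-numbered arrays of different groups did not deviate together (mean correlation 0.0139 over 84 pairs, against -0.00793 for 168 pairs of different numbers), so the numbers were not taken as pairs. The fit was tested on simulated data. Alternatives were the value table, cyclic loess, no background correction, an offset of 50, no filter, a filter of 12 arrays, every kept probe, the mean of a gene's probes, only the groups compared, trend and robust variances, array weights, a replicate block and leaving out each array.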

Additional observations from a re-analysis of the deposited data

How the results depend on the processing

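No member value past the threshold changed sign under the 12 alternatives or in the 24 fits without 1 array. Values that did not pass changed sign in 56 of 1760 cases under the alternatives, the largest being 0.31 in size (Ctsz, treated knockout versus wild type at 3 days, -0.04 with the mean of a gene's kept probes), and in 90 of 3600 cases without 1 array, the largest being 0.19 in size. Calls of Ctsk in every arm and of Gaa in wild type at 3 days held in all of them. The number of members past the threshold in the knockout at 3 days, 1, became 2 with no background correction (Gaa at 0.40, adjusted p = 0.0462) and 3 with array weights (Ctsl at 0.50 and Ctsz at 0.48 added), and ranged from 1 to 2 when 1 array was left out. In the knockout at 14 days the number, 2, became 1 in a fit of only the groups compared, where Ctsh had an adjusted p of 0.0657, and ranged from 1 to 2 when 1 array was left out. Array weights turned 0 into 3 for untreated knockout versus wild type at 14 days, 0 into 2 for treated knockout versus wild type at 3 days (Ctsz at 0.48, Gaa at -0.40), 0 into 1 for the time difference in the knockout (Ctsh at -0.67) and 0 into 1 for 14-day versus 3-day untreated knockout (Ctsh at 0.58). Ctsh in wild type at 3 days passed with cyclic loess (-0.64, adjusted p = 0.0202), only the groups compared (-0.54, adjusted p = 0.0355) and array weights (-0.60, adjusted p = 0.00372). The Ctsd call was lost with no filter (adjusted p = 0.0600). The causes were not tested. With the replicate number as a block the Ctsl mean of the 4 arms, 0.27, lost its call (adjusted p = 0.0517) and no other member call changed. The numbers were not taken as pairs. Under the filter of 12 arrays Ctsl and Ctss gave no value, and only the groups compared gave no mean of the 4 arms.

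The count of all features past the threshold in the knockout at 3 days, 873, ranged from 196 with only the groups compared to 2107 with array weights, and was 493 without untreated replicate 3 and 1332 without treated replicate 1. Without the array that stood apart it was 527. The knockout count at 14 days, 532, ranged from 290 to 2862 over the same pair of settings, and was 298 without untreated replicate 3 and 809 without untreated replicate 1. Counts in wild type were 630 at 3 days, with 1656 under array weights and 392 without treated replicate 3, and 488 at 14 days, with 245 without treated replicate 2. Array weights gave 3954 in place of 2136 for the mean of the 4 arms. They also gave 135 for 53, 2681 for 57, 1704 for 84 and 204 for 98 features in the knockout versus wild type comparisons (untreated at 3 and 14 days, treated at 3 and 14 days), 8 for 0, 47 for 2, 110 for 24 and 1072 for 21 in the genotype and time interactions, and 393 for 26 and 716 for 1 between untreated arms. Other settings moved these counts down as well. Only the groups compared gave 34 for 57, 26 for 84, 0 for 2 and 3 for 21. Leaving out 1 array gave 35 to 159 for 57, 40 for 84 and 46 to 158 for 98, the lowest being without untreated knockout replicate 3, treated wild-type replicate 2 and treated wild-type replicate 2 of those arms. It gave 9 for 24 (without treated wild-type replicate 3 of 3 days), 5 for 21 (without untreated knockout replicate 3 of 3 days) and 11 for 26 (without untreated wild-type replicate 2 of 3 days). Without untreated knockout replicate 1 of 14 days the counts were 159 for 57, 368 for 21 and 11 for 1. Without the array that stood apart they were 158 for 98 and 50 for 26. Ctsl and Ctss lay near background, and 6 of the 8 Ctsl comparisons that held a group with no detected array gave no such ratio.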
